A study of Mus musculus with 6 samples.

Results

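Retinal astrocyte markers were followed in the retina of mice labelled as lacking Lrp5, a co-receptor for Wnt ligands and for Norrin. The 10 marker genes were Gfap, Pax2, Pdgfra, Pdgfa, S100b, Aldh1l1, Vim, Nes, Cd44 and Fgfr3. The members were all probes that carry 1 of these symbols in the annotation, with no use of the measured values. This gave 25 of the 45281 probes on the array. A probe was called expressed when its detection p, which compares the probe with negative control beads, was under 0.05 on at least 3 of the 6 arrays. By this rule 10 of the 25 probes, from 7 of the 10 genes, were expressed and tested among 20721 expressed probes of the whole array. The other 15 probes had signals between 37 and 69.9 on all arrays, and Pax2, S100b and Fgfr3 had no expressed probe. The label of the list could thus be checked only in part by the defining genes of astrocytes. Pdgfra was detected on all 6 arrays at 1 probe (426.4 to 610.1) and Gfap was detected near background, while Pax2 and S100b were not detected and stay unmeasured. The markers are described gene by gene.

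Astrocytes enter the mouse retina from the optic nerve and spread over its inner surface as a network, on which the superficial blood vessels then grow. Ganglion cells make PDGF-A, the product of Pdgfa, and astrocytes carry its receptor, the product of Pdgfra. As astrocytes mature, Pax2 declines and Gfap increases. Several of the other markers are shared with Müller glia or with progenitor cells (Vim, Nes, Cd44, Aldh1l1, Fgfr3), so in RNA of a whole retina they are not particular to astrocytes.

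Retinal RNA was taken at postnatal day 8 from 3 mice labelled Lrp5-/- (strain B6.129P2-Lrp5tm1Dgen/J) and from 3 WT mice (strain C57BL/6J), and each mouse was measured on 1 array of the Illumina Mouse-WG6 BeadChip. The allele is carried in every cell, and the mice came as separate stocks, so genotype and stock cannot be told apart. Only 1 probe of Lrp5 was expressed (ILMN_2942097), and the others were undetected on every array. The expressed probe had normalized signals of 99.2, 91.3 and 95.7 in the mice labelled Lrp5-/-, against 46.8, 59.5 and 56.1 in the WT mice. It was detected on all 3 arrays labelled Lrp5-/- but on 1 of the 3 WT arrays, whose values lie near background. It thus passed the filter only through the group where it is higher. Its log2 fold change of 0.82 (SE 0.11, adjusted p = 0.0127 from limma) runs against the label, but a probe outside the deleted part of the gene checks nothing, and the place of this probe relative to the deletion is not known here. The call was lost on scaling to a common median of the expressed probes (0.69, adjusted p = 0.243) and without any 1 of the mice labelled Lrp5-/- (0.80, 0.86 and 0.82, adjusted p = 0.0887, 0.0952 and 0.121) or WT replicate 3 (0.85, adjusted p = 0.0571). The sign stayed above 0 in all 24 alternatives (0.48 to 1.36). The label could not be checked by this probe, so directions below follow the label as given.

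Between 20286 and 21233 probes were detected on the arrays labelled Lrp5-/-, against 18167, 21388 and 20365 on the WT arrays. WT replicate 1 had the lowest mean signal before normalization (200 against 304 to 431 on the other arrays) and lay further from its group than the others (residual SD of log2 signals 0.174 against 0.10 to 0.13). It was the highest array for 4 and the lowest for 2 of the 7 expressed marker genes. Signals are brightness with the background still in it. The median signal of undetected probes was 47.7 to 49.2 on the arrays labelled Lrp5-/- and 46.9 to 48.4 on the WT arrays, and the fold change of any probe close to these values is understated.

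None of the 10 expressed astrocyte marker probes passed an adjusted p of 0.05 in limma in either direction (0 lower, 0 higher). Over all 20721 probes the same rule called 18 lower (0.0869%) and 6 higher (0.029%). SAM with the study's delta of 0.19, run over the 20721 probes without the study's p and fold cutoffs, also called 0 of the marker probes. At an unadjusted p under 0.05, 1 marker probe passed, that of Pdgfra, against 1006 of all probes (4.85%). The methods' t-test had 1 marker probe lower and 1 higher at its unadjusted threshold, against 525 (2.53%) and 602 (2.91%) of all probes, and 0 after Benjamini-Hochberg adjustment. By log2 fold change, 4 of the 10 probes were below 0, against 49.9% of all probes, and 6 were above 0. The groups did not overlap for 1 probe that was lower on all arrays labelled Lrp5-/- (Pdgfra, against 4.96% of all probes) and for 1 that was higher (Pdgfa, against 5.74%). With 1 probe per gene, the brightest, the median log2 fold change of the 7 genes was 0.06, with a range of -0.28 to 0.20, beside a median of -0.01 over all genes with an expressed probe. In RNA of whole retinas, fewer cells of a type and less RNA per cell cannot be told apart.

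**Figure D1:**
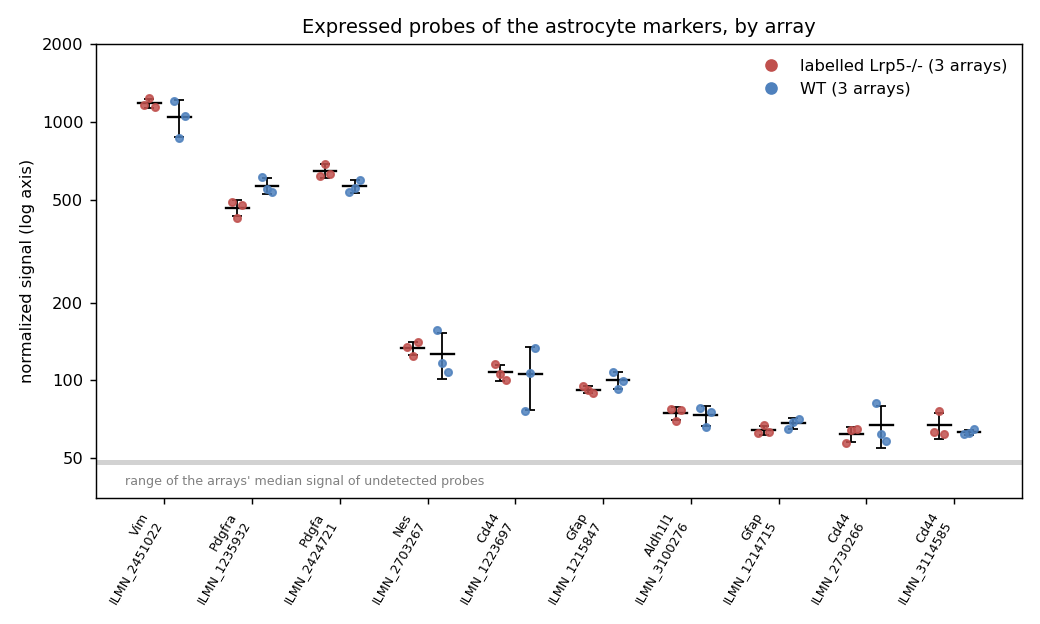
Normalized signal (log axis) of the 10 expressed probes of the astrocyte markers on each of 3 arrays labelled Lrp5-/- (red) and 3 WT arrays (blue), with the mean and SD as black bars and the range of the arrays' median undetected signal as a grey band. The groups stand apart for Pdgfra and Pdgfa, in opposite directions, and overlap for the other 8 probes.

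Pdgfra, the receptor tyrosine kinase through which retinal astrocytes respond to PDGF-A, was measured by probe ILMN_1235932. Its normalized signal was 490.6, 426.4 and 475.9 on the arrays labelled Lrp5-/-, against 610.1, 549.9 and 534.7 on the WT arrays. Every array labelled Lrp5-/- was below every WT array. The means were 464.3 ± 33.6 in the mice labelled Lrp5-/-, against 564.9 ± 39.9 in the WT mice (SD, n = 3 each). The log2 fold change of -0.28 (SE 0.10, 95% confidence interval -0.50 to -0.07) did not pass the adjustment over all probes (adjusted p = 0.847 from limma). The exact permutation test gave p = 0.1 (two-sided), which is the smallest p that 3 arrays against 3 allow. The other Pdgfra probe (ILMN_2544724) was undetected on every array, at 50.8, 48.1 and 49.9 with the label Lrp5-/- and 38.6, 49.4 and 57.7 in WT, and gives no check of the expressed one.

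Pdgfa encodes the ligand that draws astrocytes out over the retina. Its probe ILMN_2424721 read 616.6, 689.5 and 629.2 on the arrays labelled Lrp5-/-, against 536.3, 556 and 596.8 on the WT arrays. Here every array labelled Lrp5-/- was above every WT array, by a margin smaller than the spread within either group. The means were 645.1 ± 39.0 in the mice labelled Lrp5-/-, against 563 ± 30.9 in the WT mice (SD, n = 3 each). The log2 fold change was 0.20 (SE 0.09, 95% confidence interval -0.01 to 0.40) and did not pass the test (adjusted p = 0.987 from limma).

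The PDGF family was also taken as a list of 7 ligands and receptors, 5 of them expressed. None passed an adjusted p of 0.05 (0 lower, 0 higher), and the median log2 fold change was -0.07. At an unadjusted p under 0.05 in limma 2 were lower, Pdgfb and the Pdgfra already described, against 4.85% of all probes in either direction. Pdgfb, the ligand by which vessels recruit pericytes, had signals of 96.2, 91.6 and 78.4 on the arrays labelled Lrp5-/-, against 105.9, 104.5 and 123.1 on the WT arrays (ILMN_2618714). Its groups did not overlap, as for 4.96% of all probes in this direction. The log2 fold change of Pdgfb was -0.33 (SE 0.11, 95% confidence interval -0.56 to -0.09, adjusted p = 0.831). Pdgfrl, a receptor-like protein, was close to background and its groups overlapped (-0.07). Pdgfrb, the receptor of pericytes, and the ligand Pdgfd were undetected on all 6 arrays.

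**Figure D2:**
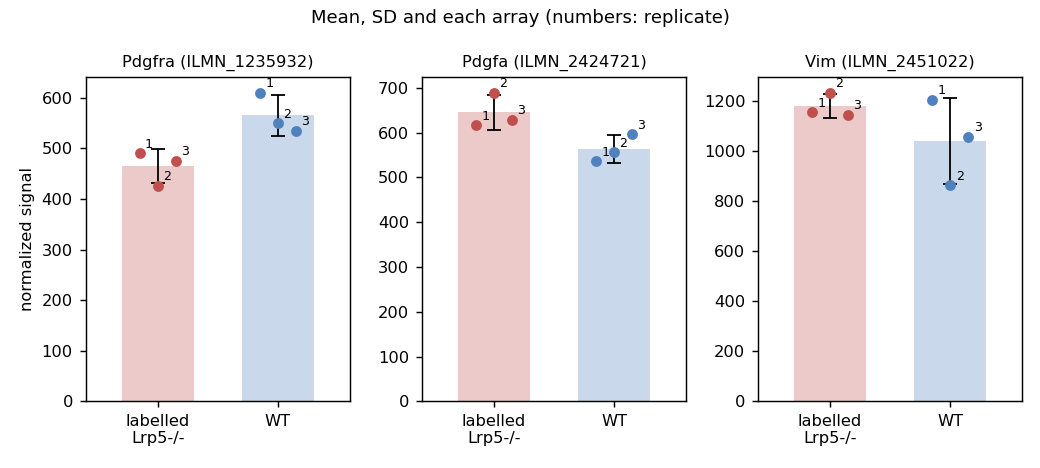
Normalized signal of Pdgfra, Pdgfa and Vim, 1 panel per gene with an axis that starts at 0, as bars (mean), error bars (SD) and points (each array, numbered by replicate) for the retinas labelled Lrp5-/- (left) and WT (right). Pdgfra averaged 464.3 with the label Lrp5-/- against 564.9 in WT, Pdgfa 645.1 with the label Lrp5-/- against 563 in WT, and the 863.5 of WT replicate 2 widens the spread of Vim.

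Gfap is the intermediate filament protein by which astrocytes are most often stained, and both of its probes passed the filter, with signals not far above background. The probe ILMN_1215847 read 95.2, 91.5 and 89.5 in the mice labelled Lrp5-/-, against 107.7, 92.7 and 99.6 in the WT mice. The groups overlapped only through the 95.2 of replicate 1 labelled Lrp5-/- and the 92.7 of WT replicate 2. The log2 fold change was -0.12 (SE 0.09, 95% confidence interval -0.32 to 0.08, adjusted p = 0.987 from limma). The probe ILMN_1214715 read 62.5, 67.3 and 63 in the retinas labelled Lrp5-/-, all detected, and 64.7, 69.3 and 71 in the WT retinas, where 2 of the 3 detected it. The log2 fold change came to -0.09 (SE 0.09, 95% confidence interval -0.28 to 0.11, adjusted p = 0.987), the same sign as that of the other probe and likewise within the spread between arrays.

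Vim, the filament protein vimentin of astrocytes, Müller glia, progenitors and endothelial cells, had signals of 1157, 1234.4 and 1145.9 on the arrays labelled Lrp5-/-, against 1206.7, 863.5 and 1057.5 on the WT arrays (ILMN_2451022). The arrays labelled Lrp5-/- lay close together, while 2 of the WT arrays were below all of them and WT replicate 1 lay among them. The means were 1179 ± 48.2 in the mice labelled Lrp5-/-, against 1043 ± 172 in the WT mice (SD, n = 3 each). This gave a log2 fold change of 0.19 (SE 0.12, 95% confidence interval -0.07 to 0.45, adjusted p = 0.987), which was 0.06 without WT replicate 2 and 0.30 without WT replicate 1. The other Vim probe (ILMN_1232980) was undetected on every array, with signals of 40.8, 51.5 and 40.7 on the arrays labelled Lrp5-/-, against 44.9, 43 and 37.6 on the WT arrays.

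Nes encodes nestin, a filament protein of progenitors and of immature astrocytes. The probe ILMN_2703267 read 134.2, 124.3 and 140.6 in the mice labelled Lrp5-/-, against 156.6, 116.4 and 108.1 in the WT mice. The WT arrays enclosed those labelled Lrp5-/-, with a log2 fold change of 0.08 (SE 0.13, 95% confidence interval -0.21 to 0.37, adjusted p = 0.990). Without WT replicate 1, the highest array, it came to 0.24 (adjusted p = 0.502). The other probe of Nes (ILMN_2904590) was detected only on the array of replicate 2 labelled Lrp5-/-, where it read 65.8, and was not tested.

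The 11 intermediate filament genes listed with Gfap, Vim and Nes included 8 that were expressed. None passed an adjusted p of 0.05 (0 lower, 0 higher), the median log2 fold change was -0.06, and 5 were below 0. Plec, the plectin that links filaments to one another and to membranes, had the smallest p of the list, with 593.1, 521.9 and 519.4 on the arrays labelled Lrp5-/-, against 736.2, 679.4 and 574.7 on the WT arrays (log2 fold change -0.28, SE 0.11, adjusted p = 0.968). Des, the desmin of muscle cells and pericytes, had the same fold change of -0.28 (adjusted p = 0.987), and of -0.04 without WT replicate 1, whose signal was 123.2 against 73 and 77.5 on the other WT arrays.

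Cd44, the receptor for the matrix polysaccharide hyaluronan, had 9 probes, the most of any marker, of which 3 were expressed. The probe ILMN_1223697 read 115.8, 105.7 and 100.4 in the mice labelled Lrp5-/-, against 76.4, 106.8 and 133.6 in the WT mice. The spread between WT arrays covered all values labelled Lrp5-/-. The means were 107 ± 7.82 with the label Lrp5-/- and 106 ± 28.6 in WT (SD, n = 3 each), and the log2 fold change was 0.06 (SE 0.17, 95% confidence interval -0.31 to 0.43). The probe ILMN_3114585, detected on all arrays labelled Lrp5-/- and on 2 WT arrays, read 62.9, 75.9 and 62.1 on the arrays labelled Lrp5-/-, against 61.9, 62.8 and 64.7 on the WT arrays (0.08, SE 0.10). The probe ILMN_2730266, detected on 2 arrays of each group, read 57, 64.3 and 64.6 in the mice labelled Lrp5-/-, against 81.4, 61.9 and 58.3 in the WT mice (-0.10, SE 0.13). The 3 probes did not share a direction, the sign of each turned under at least 1 alternative, and none differed beyond the spread between arrays (adjusted p 0.989 to 0.993). WT replicate 1 gave the lowest WT value at ILMN_1223697 and the highest at ILMN_2730266, and a Cd44 probe below the filter (ILMN_1246460) was detected on that array alone, at 69.9. The remaining 5 Cd44 probes were undetected on every array. Of the genes of hyaluronan and of CD44 partners, 3 of 11 listed were expressed, Cd44 included, with log2 fold changes between 0.01 and 0.06 and none called.

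Aldh1l1, an enzyme of folate metabolism that marks astrocytes of the brain, was close to background at its expressed probe. ILMN_3100276 read 77.5, 69.6 and 76.9 on the arrays labelled Lrp5-/-, against 78.3, 65.9 and 75.3 on the WT arrays. The groups overlapped throughout, with a log2 fold change of 0.03 (SE 0.10, 95% confidence interval -0.19 to 0.25, adjusted p = 0.993). The other Aldh1l1 probe (ILMN_3027287) was undetected on every array, between 38.2 and 51.1. The 8 expressed enzymes of folate and one-carbon metabolism listed with it showed a median log2 fold change of 0.03 and none was called.

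Pax2, S100b and Fgfr3 were at or near the signal of undetected probes on all arrays. Pax2, a transcription factor of the optic stalk and of the astrocyte lineage that leaves it, had signals of 56.6, 49 and 46.4 in the mice labelled Lrp5-/-, against 55.4, 50.8 and 49.6 in the WT mice at ILMN_2949326, and was lower still at ILMN_1227108, between 37 and 45.3. S100b, a calcium-binding protein of mature astrocytes, read 48.1, 46.6 and 50.1 on the arrays labelled Lrp5-/-, against 43.6, 48.9 and 49.7 on the WT arrays (ILMN_2634742). No array of either group detected these genes, and no fold change is given for them.

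Fgfr3, a receptor for fibroblast growth factors, was also undetected at both of its probes. ILMN_2590766 read 53.3, 55.3 and 52.9 in the mice labelled Lrp5-/-, against 50.4, 50.4 and 51.3 in the WT mice, while ILMN_1257208 read 47.7, 47.7 and 48.5 on the arrays labelled Lrp5-/-, against 56.5, 55.2 and 50.5 on the WT arrays. The groups did not overlap at either probe, but they were ordered in opposite ways and below detection. The receptors Fgfr1 and Fgfr4 and the ligand Fgf2 were undetected as well. Dusp6, a phosphatase that FGF signals induce, had the smallest p of the family's list (-0.16, SE 0.14), followed by the ligand Fgf9 (0.11, SE 0.12) and by Fgfr2 (114.7, 101.7 and 125.3 in the mice labelled Lrp5-/-, against 131.8, 122.9 and 110.3 in the WT mice, log2 fold change -0.10, SE 0.11). None of the 10 expressed genes of the 17 FGF receptors, ligands and target genes listed, or of the 7 expressed S100 genes of 15, was called, and both medians were -0.04. Detection here is a property of a probe: the neurofilament gene Nefl, abundant in ganglion cells, was likewise undetected on every array.

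**Figure D3:**
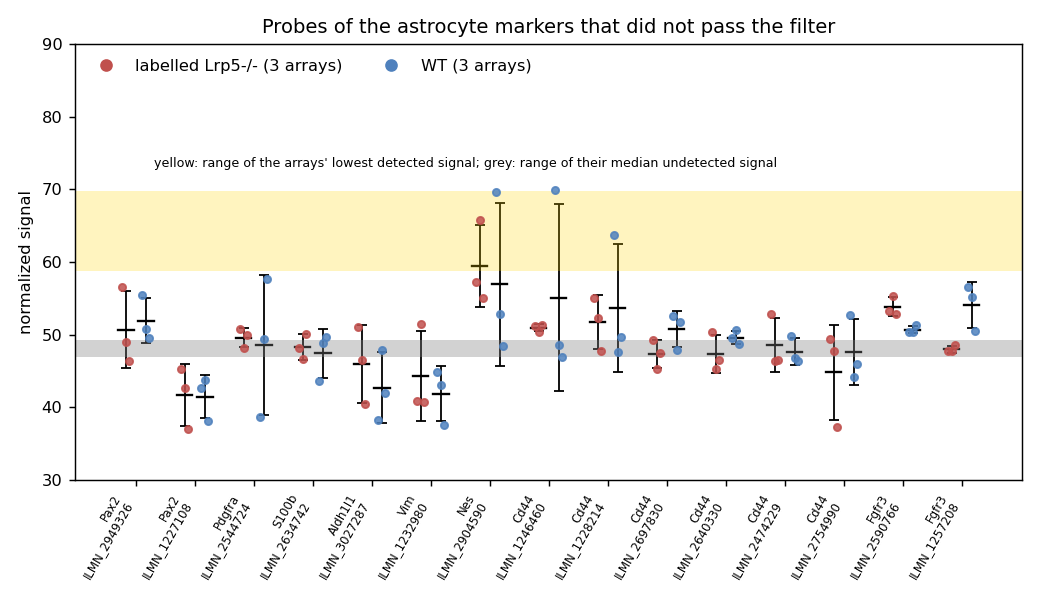
Normalized signal of the 15 astrocyte marker probes that did not pass the filter, per array (red: labelled Lrp5-/-, blue: WT), with mean and SD. The grey band is the range of the arrays' median undetected signal and the yellow band that of their lowest detected signal. Nearly all points lie below the yellow band, and only Nes ILMN_2904590 (65.8) and Cd44 ILMN_1246460 (69.9) were detected, on 1 array each.

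The 95% confidence intervals, which are not adjusted for the number of probes, give the precision of each value. Among the brightest probes of the 7 expressed genes, the bound furthest from 0 was the -0.50 of Pdgfra, and Gfap reached -0.32, Pdgfa 0.40 and Vim 0.45. The upper and lower bounds of Aldh1l1 were 0.25 and -0.19. These bounds hold for signals that include background, so for probes such as those of Gfap and Aldh1l1 the change in mRNA that they allow is larger. A call needs more than an interval that leaves out 0, as Pdgfra shows, so a change beyond some of these bounds could also have gone uncalled.

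**Figure D4:**
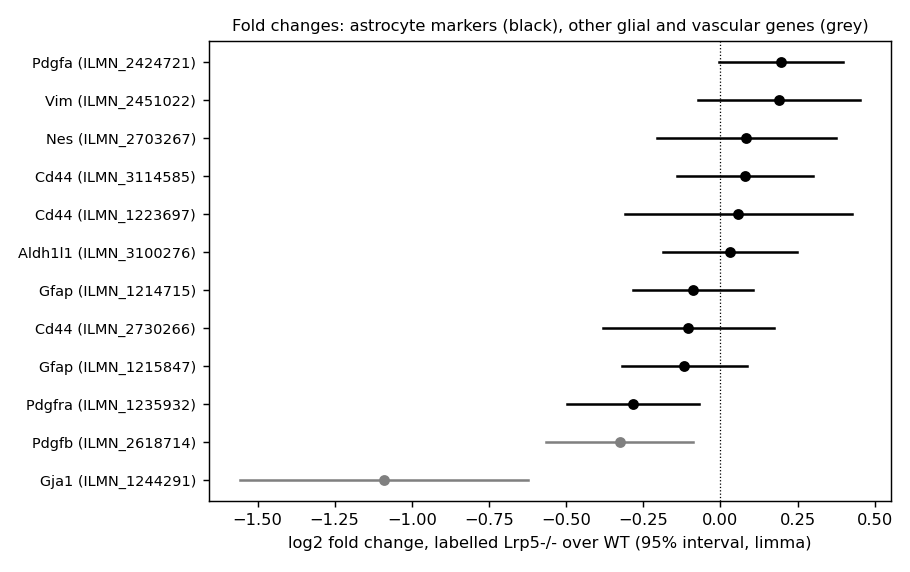
Log2 fold change (labelled Lrp5-/- over WT) with its 95% confidence interval from limma for the 10 expressed astrocyte marker probes (black) and for Pdgfb and Gja1 (grey). The interval of Pdgfra (-0.50 to -0.07) is the only one of the 10 that leaves out 0, and Gja1 lies at -1.09.

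Other genes known from astrocytes were read from a list of 30, with 22 expressed. None passed an adjusted p of 0.05 (0 lower, 0 higher). At an unadjusted p under 0.05, 1 was lower and 1 was higher, against 4.85% of all probes in either direction. The median was -0.03, and 13 were below 0. Gja1, the gap junction protein connexin 43 that couples astrocytes, had signals of 316.5, 351.5 and 623.1 on the arrays labelled Lrp5-/-, against 1026.7, 785.8 and 829.4 on the WT arrays (ILMN_1244291). The groups did not overlap, as for 4.96% of all probes in this direction. Replicate 3 labelled Lrp5-/- lay between the other mice of that label and WT. The means were 430 ± 168 in the mice labelled Lrp5-/-, against 881 ± 128 in the WT mice (SD, n = 3 each). The log2 fold change of -1.09 (SE 0.21, 95% confidence interval -1.56 to -0.62) did not pass in limma (adjusted p = 0.134). Without replicate 3 labelled Lrp5-/- it was -1.39 and passed (adjusted p = 0.00674). SAM, a looser rule that called more of all probes lower than limma did, called Gja1 lower on all 6 arrays. It did not pass in limma without any other 1 array (adjusted p 0.123 to 0.690). Nor did it pass with array weights (adjusted p = 0.0690) or scaled to a common median of the expressed probes (adjusted p = 0.304). Connexin 43 is also made by Müller glia, pericytes and endothelial cells.

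Id1, a transcription regulator downstream of BMP signals in glia and endothelium, ran the other way. It read 392.1, 369.5 and 379.5 on the arrays labelled Lrp5-/-, against 282.7, 290.7 and 266.3 on the WT arrays (ILMN_2672190), with tight and separate groups (5.74% of all probes were apart in this direction). The log2 fold change was 0.44 (SE 0.09, adjusted p = 0.134), and it passed with array weights (0.46, adjusted p = 0.0231). Leaving out any 1 array did not make it pass (adjusted p 0.0634 to 0.576). Slc1a3, the glutamate transporter of astrocytes and Müller glia, had signals of 6728.1, 7566.7 and 6606.5 in the mice labelled Lrp5-/-, against 7586.8, 6284.9 and 7563.1 in the WT mice, which overlapped (-0.03, SE 0.11, adjusted p = 0.993).

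Genes that rise in reactive glia were taken as a list of 28, of which 16 were expressed, Gfap, Vim and Cd44 among them. None passed (0 lower, 0 higher), the median was -0.04, and 10 were below 0. Hspb1, a small heat shock protein, had 114.5, 97.8 and 116.2 on the arrays labelled Lrp5-/-, against 72.3, 95.1 and 92.4 on the WT arrays. Its groups were just apart, as for 5.74% of all probes in this direction, with a log2 fold change of 0.34 (SE 0.12, adjusted p = 0.894). It was 0.22 without WT replicate 1. Il6st, the gp130 receptor subunit of interleukin 6 family cytokines, read 117.6, 123 and 110.5 with the label Lrp5-/- and 94.2, 100.5 and 112.1 in WT, with 1 overlapping value (0.20, SE 0.10, adjusted p = 0.987). Stat3, the transcription factor that drives Gfap in reactive astrocytes, was at -0.20 with overlapping groups (SE 0.11, adjusted p = 0.987).

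Among 10 transcription factors listed for the optic stalk and optic disc, the source of the Pax2 lineage, 7 were expressed and none was called (median -0.03). Of these, 5 were below 0. Pax6 and Rax also stand among the progenitor markers, so the list is not particular to the stalk and disc. Nr2e1 had every array labelled Lrp5-/- below every WT array, as had 4.96% of all probes (-0.08, SE 0.08, adjusted p = 0.987 from limma). Vax2, which patterns the ventral eye, read 192.4, 235.7 and 205.5 in the mice labelled Lrp5-/-, against 158, 205 and 193.1 in the WT mice (0.19, SE 0.12).

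Müller glia, which share several of the markers, were read from 19 genes, 16 of them expressed. None was called (0 lower, 0 higher), and the median was -0.02. The summed signal ranged over 20006.5 to 20966.6 in the retinas labelled Lrp5-/- and over 18917.5 to 21652.4 in the WT retinas. Slc1a3 and Dkk3 carry most of this sum. Hes5 and Hes1, targets of Notch signals in Müller glia and progenitors, had every array labelled Lrp5-/- below every WT array, as had 4.96% of all probes. Their log2 fold changes were -0.34 (SE 0.12) and -0.25 (SE 0.10), and neither passed (adjusted p = 0.900 and 0.966). Glul, the glutamine synthetase of mature Müller glia, was near background, at 73.2, 70.3 and 60.8 on the arrays labelled Lrp5-/-, against 65.2, 96.1 and 100.9 on the WT arrays, where the lowest array was undetected. Its log2 fold change was -0.34 (adjusted p = 0.987), and it was -0.54 without WT replicate 1 (adjusted p = 0.0540). Sox9, a factor of Müller glia and astrocytes, was at 0.21 (SE 0.11, adjusted p = 0.987), and 0.10 without WT replicate 2.

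Markers of the other cell types in the sample were read beside these values. The 13 expressed endothelial markers of 17 showed a median log2 fold change of -0.46. Of the 13, 12 were below 0, against 49.9% of all probes. The exception, Emcn, was at 0.25 (SE 0.10, adjusted p = 0.982), with every array labelled Lrp5-/- above every WT array, as for 5.74% of all probes. The general marker Pecam1 was at -0.27 and Cdh5 at -0.21. The summed signal of the 13 markers was 1999.8 to 2343.1 in the retinas labelled Lrp5-/- and 3279.7 to 3986.4 in the WT retinas, with no overlap. Cldn5, Egfl7, Esam and Flt1 carry most of the WT sum, so it is no measure of the number of endothelial cells. Of the 13 markers Cldn5, a claudin of endothelial tight junctions, was lower (74.8, 86.2 and 70.9 with the label Lrp5-/-, against 674.6, 613.7 and 791.5 in WT, log2 fold change -3.16, SE 0.12, adjusted p = 3.64e-07). The transcription factor Ets1 was lower too (-0.65, SE 0.10, adjusted p = 0.0395), but its call was lost without any 1 array other than WT replicate 1 (adjusted p 0.0906 to 0.315). The sum over the 7 expressed astrocyte markers was 2658.4 to 2741.4 in the retinas labelled Lrp5-/- and 2351.2 to 2772.1 in the WT retinas, and these ranges overlapped. Vim, Pdgfa and Pdgfra carry most of this sum, with Pdgfa higher and Pdgfra lower, so its overlap says little about Gfap or the number of astrocytes. The part of vascular cells in the values of Gja1, Id1, Pdgfb and Vim was not tested.

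The 6 expressed pericyte and smooth muscle markers of 12 had a median of -0.10 with none called, and 3 were below 0. Acta2, smooth muscle actin, was at 0.42 (SE 0.11, adjusted p = 0.401) with groups apart, as for 5.74% of all probes in this direction. Abcc9, close to background, had groups apart the other way, as for 4.96% of all probes (-0.20, SE 0.09, adjusted p = 0.987). Oligodendrocyte progenitors carry Pdgfra too. Of the 12 genes of that lineage with a probe, 7 were expressed, with a median of 0.002. Olig1, Cspg4 and Mag were among them, but Cspg4 and Mag were close to background and Cspg4 also stands among the pericyte markers. Summed signals were 995 to 1081.9 in the retinas labelled Lrp5-/- and 964.3 to 1174.3 in the WT retinas, mostly from Mbp and Cnp. Olig2, Sox10, Mog and Gpr17 were undetected on all arrays. The part of this lineage in the values of Pdgfra was not tested. The 10 expressed ganglion cell markers, of the cells that make PDGF-A, had a median of 0.03, with summed signals of 19224.5 to 21379.1 in the retinas labelled Lrp5-/- and 19061.3 to 20263.6 in the WT retinas. Isl1, the brightest, carries a large part of this sum. Medians were -0.05 for 9 expressed microglia markers, -0.07 for 13 expressed progenitor markers, and 0.08 for 8 expressed lens, cornea and ciliary markers. The last list ranged widely, from -0.91 (Otx1, adjusted p = 0.171 from limma) to 0.60 (Cryba1), with none called. The 7 expressed markers of pigment epithelium and melanocytes had a median of -0.45, with sums that overlapped widely, 1682.4 to 3450.4 in the retinas labelled Lrp5-/- and 1617.2 to 4274.2 in the WT retinas. The part of pigmented tissue in the values of the astrocyte markers was not tested.

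**Figure D5:**
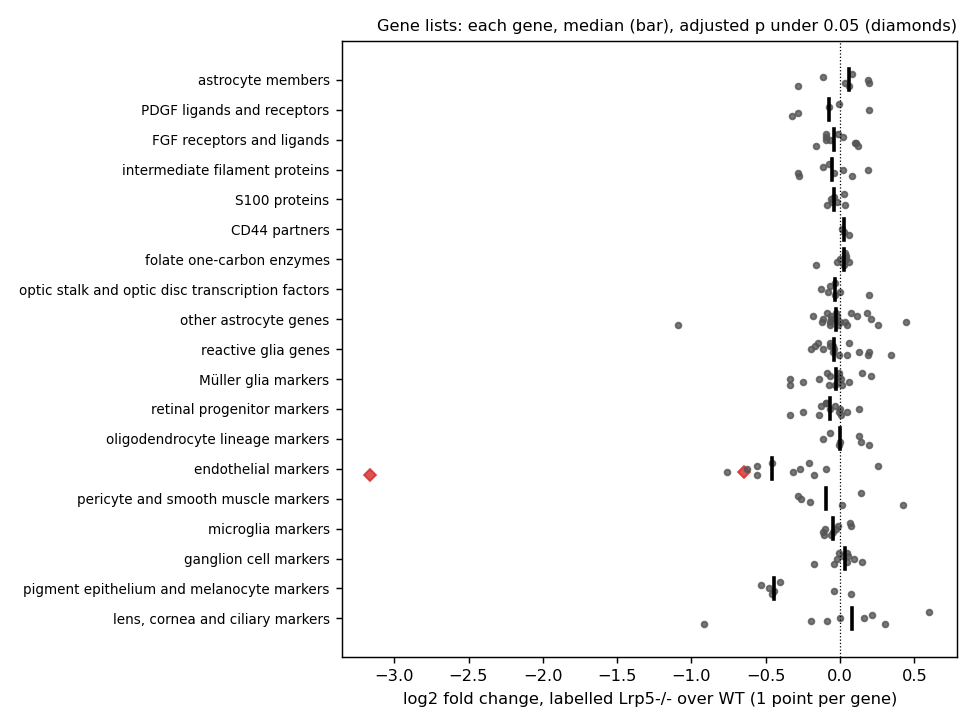
Log2 fold change (labelled Lrp5-/- over WT) of each expressed gene by its brightest probe, 1 row per gene list, with the median of the list as a black bar and genes past an adjusted p of 0.05 as red diamonds. The astrocyte markers spread closely around their median of 0.06, Gja1 stands at -1.09 among the other astrocyte genes, and the endothelial markers lie mostly below 0 (median -0.46).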

How the data were processed

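Biotin-labelled cRNA of each retina sample was hybridized to an Illumina Mouse-WG6 BeadChip, and bound cRNA was read by streptavidin-Cy3. In Bead Studio the authors brought the arrays to a common scale through probes of stable rank (rank invariant normalization). The deposited signal of each probe is a linear intensity that still holds its background, given before and after this normalization. Both tables carry identical deposited detection p-values (0 cells differ), and the series table equals the normalized one (0 cells differ). All per-sample columns were used (0 left out). Of the probes, 34885 have 1 gene symbol, and 34807 matched the RefSeq gene table by Entrez identifier, with 0 symbols changed.

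Normalized signals below 16 were set to 16 (1 value) and log2 was taken. The 20721 probes with a detection p under 0.05 on at least 3 arrays were fitted without a block in R 4.3.3 by lmFit and eBayes of limma 3.58.1, with Benjamini-Hochberg adjustment over all of them. The step was tested on simulated data. Groups came from the labels, and each sample is a biological replicate by the methods. The number of arrays (3 in each group) and the signal over background limit the precision.

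Named were every probe of the 10 markers, the called genes of each companion list, then up to 4 more in order of p (none for lists given by counts alone), and Lrp5, Gja1, Slc1a3 and Glul. Emcn, Pecam1 and Cdh5 were named in addition, to show the spread of the endothelial markers. A few others were named as the brightest genes of a summed list or the ends of a range. Undetected genes are named to account for lists. The markers, lists, tests and alternatives were chosen with earlier results of these data known. Alternatives were other normalizations, filters, offsets and tests, and leaving out each array. The sequences of the probes, their positions and the encoded proteins were not used here, and no slide block was run because the tables name no slide. Staining and RT-qPCR were not analysed here.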

Additional observations from a re-analysis of the deposited data

How the results depend on the processing

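No marker probe passed an adjusted p of 0.05 in any alternative fit (Pdgfra -0.32 to -0.08, Pdgfa 0.15 to 0.40, Vim 0.06 to 0.41), and only the methods' t-test at its unadjusted threshold had 1 lower and 1 higher. The median of the 7 marker genes lay between -0.020 and 0.13. The sign held in every alternative for Pdgfra, Pdgfa, Vim and both Gfap probes. It turned for the other 5 expressed probes. Scaled to a common median of the expressed probes, Aldh1l1 was -0.036, Cd44 -0.020 (ILMN_1223697) and -0.031 (ILMN_3114585), and Slc1a3 0.072. With array weights, Cd44 was -0.14 (ILMN_1223697) and 0.023 (ILMN_2730266). With 1 array left out, the ranges were -0.042 to 0.082 for Aldh1l1, -0.023 to 0.24 for Nes, -0.16 to 0.25 (ILMN_1223697), -0.014 to 0.13 (ILMN_3114585) and -0.20 to 0.042 (ILMN_2730266) for Cd44, -0.12 to 0.012 for Slc1a3, and -0.014 to 0.18 for Fgf9. With the filter recomputed without WT replicate 1, Cd44 was -0.16 (ILMN_1223697) and 0.042 (ILMN_2730266) and Slc1a3 0.012. The cause of these turns was not tested.

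Over all probes, the 18 lower and 6 higher calls became 9 and 1 scaled to a common median of the expressed probes, 2 and 0 without normalization, 9 and 2 with 50 added to each signal, 31 lower with an intensity trend, 74 and 24 with array weights, 128 lower by SAM, 3 higher with detection on all 6 arrays, 0 and 0 by the methods' t-test after adjustment (525 and 602 unadjusted), and 58 and 23 with the filter recomputed without WT replicate 1. Leaving out 1 array gave 9 to 62 lower and 1 to 23 higher, with 62 and 23 without WT replicate 1. Scaling to a common median of all probes, chosen after seeing the data, gave 0 and 0. It moved the median of all probes to 0.12, with 19.2% of probes below 0 against 49.9%, so that Slc1a3 was at 0.20 and Stat3, Fgfr2 and Dusp6 at 0.0067, 0.0051 and 0.042. Signals without normalization had 38.2% below 0 and Slc1a3 at 0.11.

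Replicate numbers did not pair the samples (correlations of same-numbered deviations -0.211, -0.150 and -0.279, with 0 of 6 samples closest to their own number). The fit with the replicate number as a block called 11 lower and 2 higher over all probes and 0 marker probes. Low signal limits Gfap, Aldh1l1 and Cd44, and leaves Pax2, S100b and Fgfr3 unmeasured.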
